A study of Homo sapiens with 4 samples.

Results

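Unannotated transcripts of a single exon that lie within introns made up 29273 of the 54708 transcripts in the deposited lncRNA table, and they are called members here. They were taken by the authors' class code for intronic transcripts and an exon number of 1, whatever their level. The files give 27866 members a gene symbol, which is called the host gene here, and give 1407 none. The symbols numbered 7277. Not every symbol is a gene that holds its member, since some, such as MIR30B, name a gene shorter than the member. The other unannotated single-exon transcripts were 10023 intergenic ones and 3308 antisense to an exon, and 11334 transcripts were annotated. Total RNA, freed of ribosomal RNA with Ribo-Zero Gold, came from A549/DDP, a cisplatin-resistant derivative of the lung adenocarcinoma line A549, from A549 itself, from HCC827/GR, a resistant derivative of the EGFR-mutant lung adenocarcinoma line HCC827, and from HCC827 itself. Each of the 4 conditions had 1 library. Both resistant lines were made by months of rising drug doses and were kept without drug for a week before use. The sample labels name them A549/R and HCC827/R and call both cisplatin-resistant, whereas the paper describes HCC827/GR as gefitinib-resistant. Each resistant line is a single derived line, so resistance and the history of that line cannot be told apart. With 1 library per condition there is no replicate spread, no test was run, and every difference is between single libraries. Markers of the lines were not checked, since mRNA levels were not analysed here.

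A primary transcript holds its introns until the spliceosome removes them, and the excised introns are normally degraded in the nucleus. RNA depleted of ribosomal RNA, unlike poly(A)-selected RNA, keeps unspliced and excised intron sequence, so an assembler can join reads from an intron into short transcripts of their own. Introns also hold other genes. Many microRNAs and small nucleolar RNAs are cut out of introns, and processed pseudogenes are copies of spliced mRNAs that were inserted elsewhere in the genome, often within an intron. Fewer cells with a transcript and fewer molecules per cell cannot be told apart in such bulk RNA.

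A few members lie over annotated microRNA genes, and these sequences show what such a member can hold. The mature sequences below are from RefSeq (GRCh38.p14), written 5′ to 3′ with the seed, bases 2 to 8, in capitals. They come from chr2:207754816-207754837 on the plus strand for miR-4775, chr18:35591782-35591803 on the plus strand for miR-3975, and chr2:177313811-177313832 and chr2:177313853-177313874, both on the minus strand, for the arms of miR-6512. No seed was shared among them.
hsa-miR-4775: uUAAUUUUuuguuucggucacu
hsa-miR-3975: uGAGGCUAaugcacuacuucac
hsa-miR-6512-3p: uUCCAGCCcuucuaaugguagg
hsa-miR-6512-5p: uACCAUUAgaagagcuggaaga

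The member over MIR4775, within CCNYL1, a cyclin Y-like gene, had 8 read pairs in A549/DDP, 5.95 in A549, 61.1 in HCC827/GR and 0 in HCC827. That member was assigned to the minus strand, opposite to the microRNA. A read pair here is the number of bases on a transcript divided by those of 1 pair of full-length reads, and need not be whole. The member over MIR3975, within GALNT1, a gene of an enzyme that starts mucin-type O-glycosylation, was at 0 in A549/DDP, A549 and HCC827/GR and had 41.5 read pairs in HCC827, and it lay on the strand of the microRNA. The member over MIR6512 had 8.36 read pairs in A549/DDP, 2.76 in A549 and 0 in both HCC827 libraries. The highest microRNA member was one of 8534 bases over MIR30B and MIR30D, with 48.8 read pairs in A549/DDP, 11.6 in A549, 219.8 in HCC827/GR and 260.3 in HCC827. In all, 21 members overlapped a RefSeq gene of a microRNA, tRNA, snRNA or snoRNA, which is 0.0717% of the members.

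The promoters of FAM155A and PDE4B are shown because the members in these host genes carried the largest sums in A549/DDP and in A549. Both are from RefSeq (GRCh38.p14) and run from 250 bases before the gene's start to 50 bases after it, 5′ to 3′ along the gene, with GC boxes (GGGCGG on either strand) in capitals. That of FAM155A, named NALF1 in RefSeq, is at chr13:107867447-107867746 on the minus strand, and that of PDE4B at chr1:65792260-65792559 on the plus strand. In the files' coordinates the members in PDE4B begin only at position 65994812, well downstream of this window. Whether transcripts from these starts gave rise to the members was not tested.
FAM155A: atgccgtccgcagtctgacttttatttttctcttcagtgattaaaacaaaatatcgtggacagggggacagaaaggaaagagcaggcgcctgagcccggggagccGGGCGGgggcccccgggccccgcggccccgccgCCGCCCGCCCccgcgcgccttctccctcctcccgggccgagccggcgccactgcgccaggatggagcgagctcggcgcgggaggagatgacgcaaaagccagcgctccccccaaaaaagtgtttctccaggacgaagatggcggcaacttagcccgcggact
PDE4B: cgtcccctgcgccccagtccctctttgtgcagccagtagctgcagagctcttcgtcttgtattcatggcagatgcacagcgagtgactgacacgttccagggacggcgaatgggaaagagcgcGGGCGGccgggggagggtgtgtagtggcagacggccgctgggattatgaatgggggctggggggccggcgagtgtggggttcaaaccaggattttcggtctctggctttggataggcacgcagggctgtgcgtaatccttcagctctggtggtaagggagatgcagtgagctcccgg
The FAM155A promoter held 3 GC boxes, of which some overlap, and 32 CpG dinucleotides, and the PDE4B promoter held 1 GC box and 19 CpG dinucleotides. Neither held a TATA box (TATAAA) or a CCAAT box (CCAAT) on either strand in this window. Of the 27305 RefSeq promoters of this length, 44.6% held a GC box, 11.95% a TATA box and 35.7% a CCAAT box, and the median was 14 CpG dinucleotides.

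The libraries differed in how deeply they covered the members, and HCC827/GR stood apart. The aligned bases behind the deposited values were 4.62 gigabases in A549/DDP, 4.34 in A549, 4.45 in HCC827/GR and 5.24 in HCC827. Members took 0.930% of the aligned bases in A549/DDP, 0.670% in A549, 3.44% in HCC827/GR and 2.38% in HCC827. The number of members above 0 was 12303 in A549/DDP, 9909 in A549, 4175 in HCC827/GR and 16240 in HCC827. HCC827/GR therefore had the largest share of bases and the fewest members. The median member above 0 carried 7.11 read pairs in A549/DDP, 5.86 in A549, 129.5 in HCC827/GR and 18.4 in HCC827. The other classes showed the same order, since intergenic single-exon transcripts above 0 had medians of 7 read pairs in A549/DDP, 6 in A549, 123 in HCC827/GR and 17 in HCC827. Annotated transcripts above 0 had 4.61 read pairs in A549/DDP, 3.49 in A549, 63 in HCC827/GR and 13.8 in HCC827. The part of this depth difference in the comparisons below was not tested, and they are also given for members well covered in both libraries or without HCC827/GR.

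**Figure D1:**
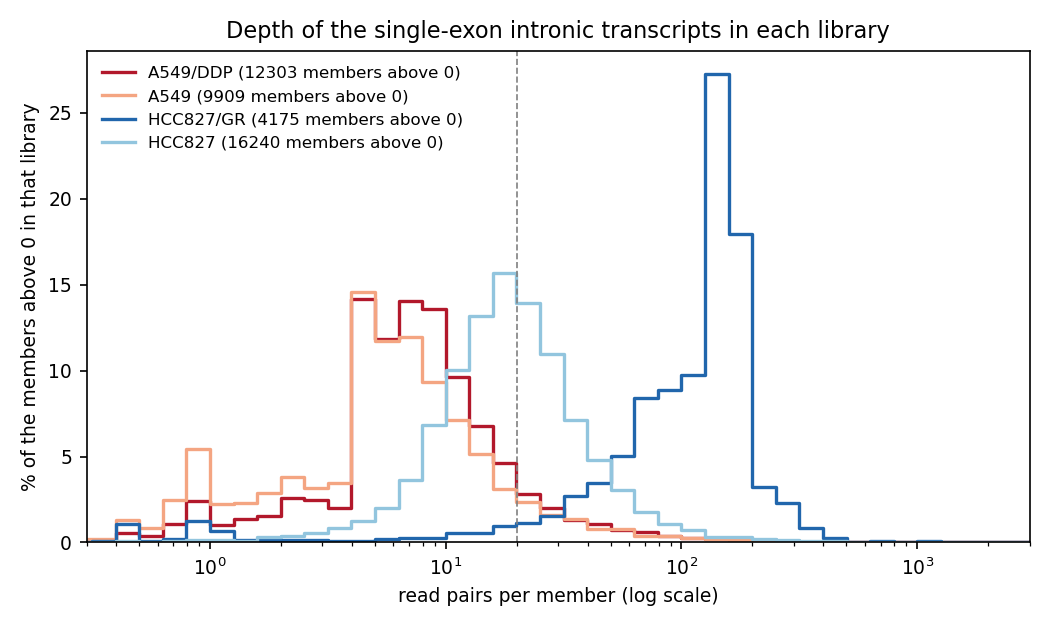
Number of read pairs per member on a log axis, as the percentage of the members above 0 in each library, with a dashed line at 20 read pairs. The HCC827/GR curve lies to the right of the other 3, with a median of 129.5 read pairs against 18.4 in HCC827, and the A549/DDP median of 7.11 is close to the A549 median of 5.86.

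Members were short and mostly found in a single library. Their median length was 266 bases, with an interquartile range of 222 to 386, and the shortest had 200 bases and the longest 10526. The authors removed transcripts under 200 bases, which sets the lower end. Under 300 bases were 60.3% of them, and 5.13% had 1000 bases or more, against 35.9% of annotated transcripts. Intergenic single-exon transcripts were of similar length, with a median of 263 bases. The authors' Coding Potential Calculator score had a median of -1.19 and was below -1 in every member. The paper names a cut at -1 for this score. Intergenic and antisense single-exon transcripts were below -1 throughout as well, so this limit is not particular to members. Above 0 in 1 library alone were 19085 members (65.2%), in 2 libraries 7411, in 3 libraries 2388 and in all 4 libraries 389 (1.33%). Of annotated transcripts, 8.92% were above 0 in all 4 libraries.

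Members seen in 1 library alone showed the gap between libraries most plainly. There were 4972 in A549/DDP, with a median length of 247 bases and a median of 7 read pairs, and 3220 in A549, with 254 bases and 6 read pairs. HCC827/GR had 1961, with 229 bases and 141 read pairs, and HCC827 had 8932, with 240.5 bases and 17.8 read pairs. In 3 libraries longer members had more read pairs, with Pearson's r across members of 0.73 in A549/DDP, 0.65 in A549 and 0.69 in HCC827. In HCC827/GR r was 0.27, and the median was 135.5 read pairs in members of 200 to 220 bases and 156 in those of 301 to 400 bases. These correlations are across members of 1 library, which share its depth and the assembler's minimum, and are given as a description.

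Reaching 20 read pairs in at least 2 libraries was rare. It held for 1455 members (4.97%), of which 1023 reached it in 2 libraries, 312 in 3 and 120 in all 4. Without HCC827/GR the number was 920. The same share was 4.63% of intergenic single-exon transcripts, 6.32% of antisense ones and 14.1% of annotated ones. These members were long, with median lengths of 928 bases at 20 read pairs in 2 libraries, 1686 in 3 and 1923.5 in 4, against 249 bases for members that reached it in none. Read pairs are counted over the whole length of a member, so the floor itself favours long members. HCC827/GR and HCC827 shared 460 members that reached 20 read pairs in no other library, and A549/DDP and A549 shared 89. In 1 library alone, 424 members reached it in A549/DDP, 250 in A549, 3050 in HCC827/GR and 5924 in HCC827.

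The 120 members at 20 read pairs or more in all 4 libraries had median levels close to each other in resistant and parent line. Their median fold was 1.15 for A549/DDP over A549, with 9 members at 2-fold or more and 4 at 0.5-fold or less. For HCC827/GR over HCC827 it was 1.16, with 31 members at 2-fold or more and 27 at 0.5-fold or less. A floor of 20 read pairs in both libraries keeps out the largest differences, so these counts are a description of well-covered members.

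By bases per megabase aligned, the highest lowest level over the libraries was that of a member of 767 bases in DOCK9, a gene of a guanine nucleotide exchange factor for Cdc42 (chr13:98812146-98812912 in the files' coordinates, minus strand). It had 349.9 read pairs in A549/DDP, 294.9 in A549, 367.9 in HCC827/GR and 459.2 in HCC827. The libraries lay within 26.7 to 34.5 FPKM for it. A member of 5457 bases with no host symbol on chromosome 19 had 299.5 read pairs in A549/DDP, 253.7 in A549, 369.0 in HCC827/GR and 398.5 in HCC827. In ZNRF2P2, a pseudogene, a member of 2755 bases had 156.4 read pairs in A549/DDP, 140.1 in A549, 168.1 in HCC827/GR and 176.9 in HCC827.

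Other members covered in every library varied more. The member with most read pairs in A549/DDP and in A549 lay in the lncRNA gene RP13-512J5.1 (chr2:3541352-3544785, minus strand), with 1136 read pairs in A549/DDP, 684.5 in A549, 246.6 in HCC827/GR and 644.3 in HCC827. In ANKRD10, a gene of an ankyrin repeat protein, a member of 3198 bases had 426.4 read pairs in A549/DDP, 353.0 in A549, 215.8 in HCC827/GR and 1041 in HCC827. In SRFBP1, a gene of a protein that binds serum response factor, a member of 5100 bases had 396.9 read pairs in A549/DDP, 289.8 in A549, 161.1 in HCC827/GR and 390.5 in HCC827. For these 3 members HCC827/GR was the lowest library, although the median of its members above 0 was the highest. The other members of the 10 lay in GOLGA4, LINC01021, ZC3H12C and WASH7P, and WASH7P belongs to a family of near-identical copies at chromosome ends, so its reads cannot be assigned to 1 copy with certainty.

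**Figure D2:**
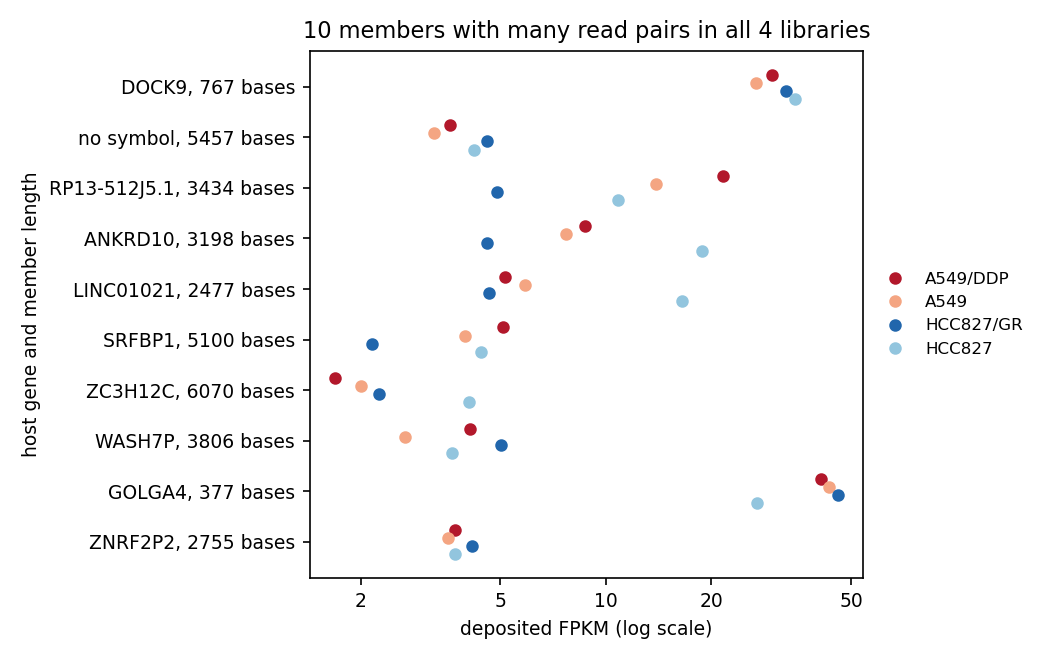
Deposited FPKM on a log axis of the 10 members with the highest lowest value in bases per megabase aligned, not in FPKM, among those at 20 read pairs or more in all 4 libraries, with 1 point per library. In DOCK9 the 4 points lie between 26.7 and 34.5 FPKM, and in RP13-512J5.1, ANKRD10 and SRFBP1 HCC827/GR is the lowest point.

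The member of RP13-512J5.1 led both A549 libraries, and other members led HCC827/GR and HCC827. In A549/DDP the member of RP13-512J5.1 was followed by 1 in SNRPD3, a gene of a core spliceosomal Sm protein, with 619.0 read pairs in A549/DDP, 0 in A549, 311.1 in HCC827/GR and 0 in HCC827. Next in A549/DDP was a member of 10526 bases in PBDC1, the longest of all. In A549 the third was in MIRLET7BHG, the host lncRNA of let-7b, with 346.7 read pairs in A549/DDP, 348.6 in A549, 36.1 in HCC827/GR and 330.5 in HCC827. In HCC827/GR the highest was a member with no symbol on chromosome 13, with 0 read pairs in A549/DDP and A549, 2129 in HCC827/GR and 49.7 in HCC827. A member in TAF9B, a gene of a TFIID-associated factor, had 1089 read pairs in HCC827/GR and was at 0 in A549/DDP, A549 and HCC827. In HCC827 a member with no symbol on chromosome 21 had 1 read pair in A549/DDP, 0.5 in A549, 771.5 in HCC827/GR and 2038 in HCC827.

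Members over pseudogenes were few, and their share was larger among the members covered in every library. RefSeq pseudogenes shorter than 10 kb overlapped 145 members (0.495%), and 8 of the 120 members at 20 read pairs in all 4 libraries (6.67%). They held 1.83% of member bases in A549/DDP, 2.32% in A549, 0.701% in HCC827/GR and 1.27% in HCC827. Reads of such a copy and of its parent mRNA cannot be told apart with certainty, so these values may include the parent gene.

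By read pairs, the one with the highest lowest value over the 4 libraries was a member of 377 bases over TCEA1P2, a copy of the gene of a transcription elongation factor, within GOLGA4, a golgin gene (chr3:37277617-37277993, plus strand). It had 41.1 FPKM in A549/DDP, 43.3 in A549, 46.0 in HCC827/GR and 26.9 in HCC827. A member over CKS1BP1, a copy of the cell cycle gene CKS1B, within the bradykinin receptor gene BDKRB2, had 171.5 read pairs in A549/DDP, 113.1 in A549, 161.1 in HCC827/GR and 152.5 in HCC827. Over HMGN2P4, a copy of a nucleosome-binding protein gene, within SV2C, a synaptic vesicle protein gene, a member had 230.6 read pairs in A549/DDP, 101.8 in A549, 157.3 in HCC827/GR and 135.6 in HCC827. These 3 were above 100 read pairs in every library.

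Others were missing from a library. The member over BZW1P2 in LSAMP, a gene of a neuronal adhesion protein, had 0 read pairs in A549/DDP, 260.8 in A549, 359.1 in HCC827/GR and 470.2 in HCC827. The member over NPM1P6, a copy of the nucleophosmin gene, in CLVS1 was at 0 in A549/DDP, had 281.5 read pairs in A549 and was at 0 in HCC827/GR and HCC827. A member over MTND5P28, a nuclear copy of a mitochondrial gene, had 296.6 read pairs in A549/DDP, 170.9 in A549, 0 in HCC827/GR and 436.5 in HCC827.

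Most members lay on the strand of the host gene and towards its start. RefSeq held the host symbol of 24907 members, and 22765 of these (91.4%) lay inside the RefSeq gene of that name. Of the 18670 that also had a strand, 17113 (91.7%) were on the host's strand and 1557 were antisense to it. The share above 0 on the host's strand was 91.6% in A549/DDP, 91.0% in A549, 94.3% in HCC827/GR and 91.96% in HCC827. The strand protocol was not given in the sources used, and without one the strand of a single-exon transcript is uncertain. When host genes were cut into 10 stretches of equal length from start to end, the first stretch held 17.1% of members and the last 6.11%. Members antisense to the host were placed the other way round, with 6.68% in the first stretch and 25.4% in the last.

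By bases, the first stretch took 21.3% in A549/DDP, 19.99% in A549, 15.2% in HCC827/GR and 19.99% in HCC827. The stretch before the last took 4.49% in A549/DDP, 5.41% in A549, 9.55% in HCC827/GR and 5.81% in HCC827. The decline along the gene was thus flatter in HCC827/GR than in the other 3 libraries. Host genes were long, with a median RefSeq span of 54.5 kb, and 206.7 kb for hosts with 10 or more members, against 24.1 kb for all protein-coding genes. The number of members per host correlated with its span (Spearman's rho 0.41 across 6172 host genes, which are not independent replicates).

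**Figure D3:**
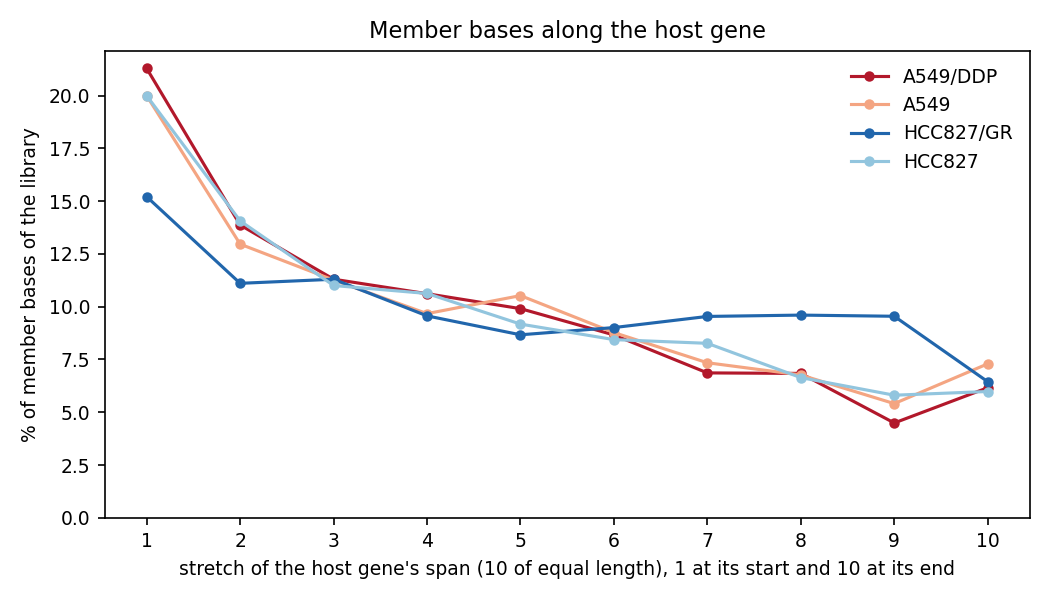
Percentage of each library's member bases in each of 10 equal stretches of the host gene's span, from its start (1) to its end (10). The first holds 21.3% in A549/DDP, 19.99% in A549, 15.2% in HCC827/GR and 19.99% in HCC827, and the HCC827/GR line is above the others in stretches 7 to 9.

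Members were spread over many host genes, with a few very rich ones. Of the 7277 host genes, 3346 (46.0%) held 1 member, and the median was 2. The 603 with 10 or more members (8.29%) held 12400 members (42.4%), and 27 host genes had 50 or more. The most members were in FAM155A (187), GPC6 (140), EXOC4 (131), PCDH9 (114), PDE10A (103), RP11-244M2.1 (100), RAD51B (90) and MECOM (79). The levels of a host gene below are the sum of its members, as bases per megabase aligned in that library. The 12 host genes with the highest mean over the 4 libraries held 9.22% of member bases in A549/DDP, 5.51% in A549, 1.55% in HCC827/GR and 5.91% in HCC827. Ranked without HCC827/GR, 11 of the 12 were the same genes, and TRIO dropped out.

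**Figure D4:**
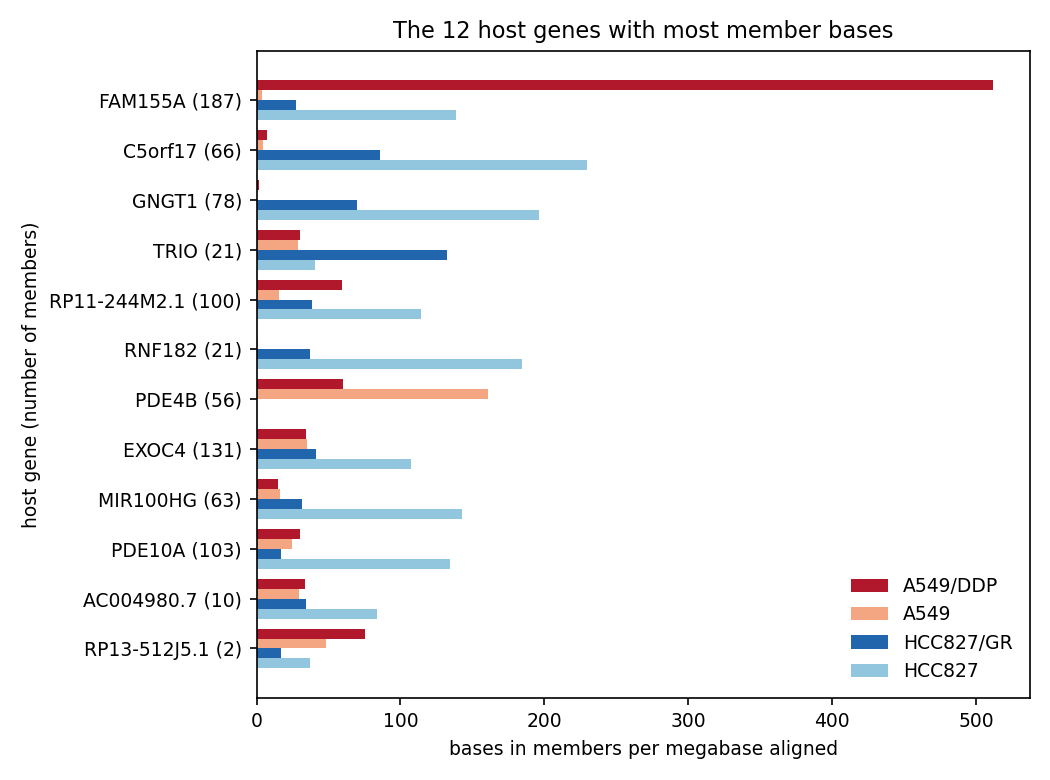
Summed member bases per megabase aligned in the 12 host genes with the highest mean, with the number of members in brackets and 1 bar per library. FAM155A reaches 512 in A549/DDP and 4.04 in A549, PDE4B is at 0 in both HCC827 libraries, and TRIO is highest in HCC827/GR at 132.

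FAM155A in A549/DDP showed the largest sum of any host gene in any library. It encodes an auxiliary subunit of the sodium leak channel NALCN and spans a few long introns. Its members summed to 512 bases per megabase in A549/DDP, 4.04 in A549, 27.8 in HCC827/GR and 138.9 in HCC827, or 7834, 58.1, 408.7 and 2409 read pairs in that order. A549/DDP was 127-fold higher than A549 (95% exact conditional Poisson interval 98.0 to 167), and HCC827/GR was at 0.200-fold of HCC827 (0.180 to 0.222). Such intervals cover counting error only, since reads without molecular identifiers are not independent molecules. No single member carried the difference, as the highest held 4.06% of the sum in A549/DDP.

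All 187 members were on the minus strand, the strand of the gene, between positions 107273096 and 107865625 of chromosome 13 in the files' coordinates. Above 0 were 181 in A549/DDP, 33 in A549, 4 in HCC827/GR and 97 in HCC827. Per megabase aligned, 181 members were higher in A549/DDP than in A549 and 2 were lower, while 154 were listed at 0 in A549. Members were assembled where a library had reads and are pieces of 1 gene. The counts are thus a description and not repeated observations. Over all members tested in this pair, 53.1% were at 2-fold or more and 36.4% at 0.5-fold or less. The members above 0 lay between 1 and 317.8 read pairs in A549/DDP, with a median of 21.7, and between 0.603 and 5 in A549, with a median of 1.31. In HCC827/GR they lay between 54.0 and 198.2 read pairs, with a median of 78.3, and in HCC827 between 0.5 and 93.5, with a median of 19.

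Signal was lower towards the end of the gene. The first 100 kb from the most 5′ member held 22 members with 1836 read pairs in A549/DDP and 582.3 in HCC827. The stretch from 500 to 600 kb held 19 members with 269.0 read pairs in A549/DDP and 34.2 in HCC827. Members were also longer near the start, with median lengths of 1304 bases in the first stretch and 383 in the last. Rows of FAM155A outside the members, 5 in number, summed to 97.4 read pairs in A549/DDP, 1.61 in A549, 0 in HCC827/GR and 12 in HCC827. FAM155A held 53.9% of all member bases on chromosome 13 in A549/DDP. Chromosome 13 took 10.2% of member bases in A549/DDP and 3.78% in A549, and without FAM155A 4.97% and 3.72%.

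**Figure D5:**
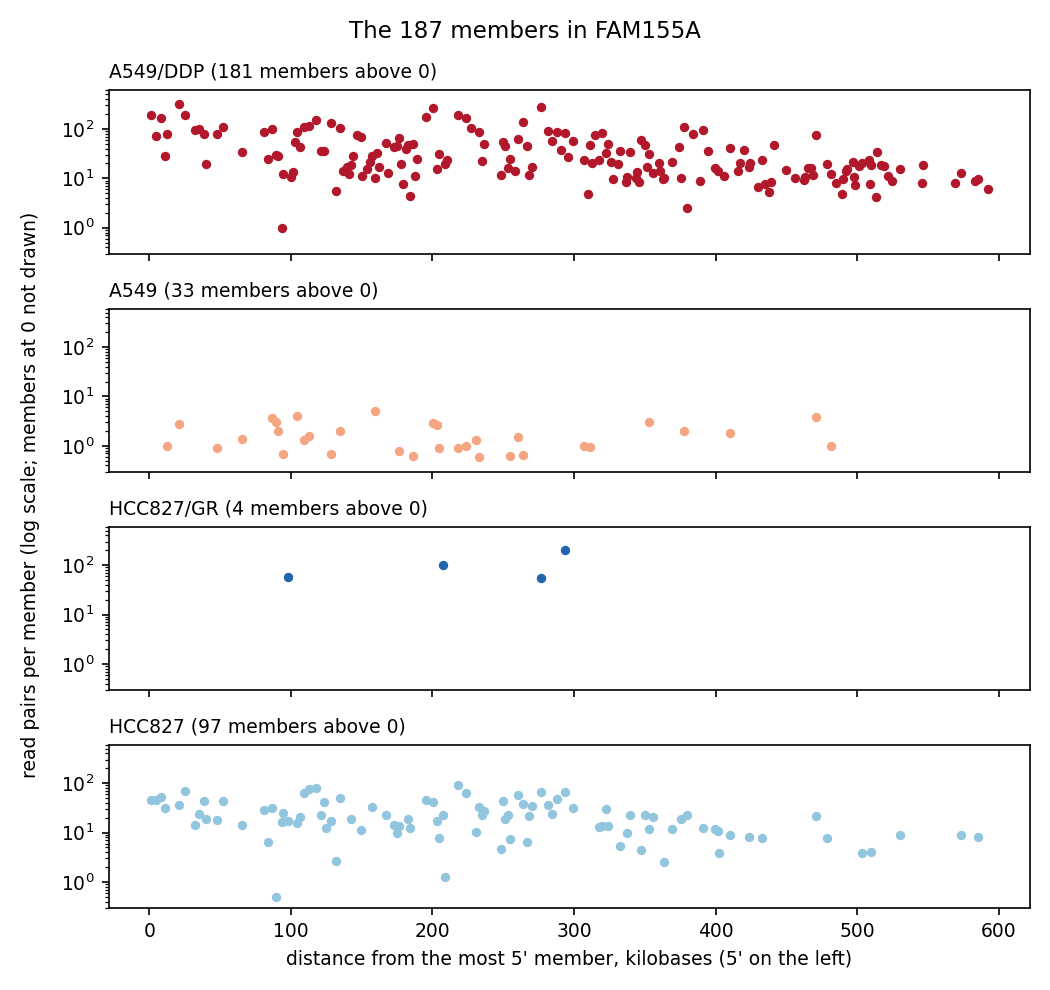
Read pairs of each of the 187 members in FAM155A on a log axis against the distance from the most 5′ member in kilobases, with 1 panel per library and members at 0 not drawn. In A549/DDP 181 members are above 0, up to 317.8 read pairs, and in A549 33 members, none above 5.

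GPC6, PCDH9 and EXOC4 were among the hosts with most members. GPC6, a glypican that carries heparan sulfate at the cell surface, had 72.1 bases per megabase in A549/DDP, 13.2 in A549, 4.14 in HCC827/GR and 9.14 in HCC827. A549/DDP was 5.48-fold higher than A549 (4.70 to 6.43), with 116 of its 140 members above 0 in A549/DDP and 50 in A549. Members were assembled where a library had reads, so here and for the host genes below such counts are a description only. PCDH9, a protocadherin, had 72.3 in A549/DDP, 39.6 in A549, 0.0340 in HCC827/GR and 1.32 in HCC827. For PCDH9 both A549 libraries were far above both HCC827 libraries, whereas for GPC6 only A549/DDP was, and A549 was nearer to HCC827. EXOC4, a subunit of the exocyst that tethers vesicles at the plasma membrane, had 34.2 in A549/DDP, 35.3 in A549, 41.4 in HCC827/GR and 107 in HCC827. For EXOC4 the interval of A549/DDP over A549 was 0.854 to 1.09 around 0.967, which includes 1.

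PDE4B, PDE10A, GNGT1 and TRIO were among the 12 host genes with the highest mean. PDE4B, a phosphodiesterase that degrades cAMP, had 60.2 bases per megabase in A549/DDP and 161 in A549, and its 56 members were listed at 0 in both HCC827 libraries. A549/DDP was at 0.373-fold of A549 (0.345 to 0.403). PDE10A, which degrades cAMP and cGMP, had 30.3 in A549/DDP, 24.4 in A549, 16.6 in HCC827/GR and 134 in HCC827. HCC827/GR was at 0.124-fold of HCC827 (0.108 to 0.142) for PDE10A, with 2 members above 0 against 78 in HCC827. GNGT1, the gamma subunit of the rod G protein transducin, had 1.81 in A549/DDP, 0.315 in A549, 70.2 in HCC827/GR and 196 in HCC827. TRIO, an exchange factor for small GTPases, had 29.9 in A549/DDP, 28.8 in A549, 132 in HCC827/GR and 40.4 in HCC827, and HCC827/GR was 3.28-fold higher than HCC827 (3.004 to 3.58). TRIO had 11 members above 0 in each HCC827 library.

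The remaining hosts with high sums were mostly highest in HCC827. RNF182, a RING-type ubiquitin ligase, had 0 bases per megabase in A549/DDP, 1.29 in A549, 37.1 in HCC827/GR and 184 in HCC827. C5orf17 had 7.43 in A549/DDP, 4.64 in A549, 85.8 in HCC827/GR and 229.8 in HCC827. MIR100HG, the host lncRNA of miR-100, had 14.7 in A549/DDP, 16.3 in A549, 31.9 in HCC827/GR and 143 in HCC827. For these 3 genes HCC827/GR lay below HCC827, at 0.202-fold, 0.373-fold and 0.223-fold. MECOM, the locus of the transcription factor EVI1, had 1.65 in A549/DDP, 0.706 in A549, 16.9 in HCC827/GR and 126 in HCC827, with 78 of its 79 members above 0 in HCC827. RAD51B, a gene of homologous recombination, had 28.2 in A549/DDP, 13.8 in A549, 31.8 in HCC827/GR and 46.4 in HCC827. The lncRNA genes RP11-244M2.1 and AC004980.7 had 59.1 and 33.4 in A549/DDP, 15.3 and 29.8 in A549, 38.6 and 34.7 in HCC827/GR, and 114 and 83.9 in HCC827.

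Rows of the same symbols that are not members gave a second view of some hosts. Those of GPC6, 34 in number, had 515.3 read pairs in A549/DDP, 122.5 in A549, 81.5 in HCC827/GR and 74.5 in HCC827. Those of PDE4B, 14 in number, had 88.3 read pairs in A549/DDP and 161.9 in A549 and were at 0 in both HCC827 libraries. Both had the order of the members between A549/DDP and A549, but this was not general. Between HCC827/GR and HCC827 those of GPC6 had the other order to its members, with 5.54 bases per megabase in HCC827/GR and 4.29 in HCC827. Of 13 named host genes tested in the A549 pair with 50 or more read pairs in such rows in A549/DDP or A549, 7 had the order of the members and 6 the other order. For CYP1B1-AS1, with members higher in A549/DDP, such rows had 15.5 read pairs in A549/DDP and 83.1 in A549, and for RP11-357H14.17, also with members higher in A549/DDP, 23.9 in A549/DDP and 114.2 in A549. GNGT1, not tested in the A549 pair, had 9.41 read pairs in A549/DDP, 773.7 in A549, 0 in HCC827/GR and 223.8 in HCC827 in 8 other rows, against 4.53 read pairs of members in A549. These rows were looked up after the members' values were seen.

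Comparing A549/DDP with A549 asks which intronic transcripts go with cisplatin resistance in this line. Of 17712 members at 0.1 FPKM or more in either library, 9412 (53.1%) were at 2-fold or more and 6448 (36.4%) at 0.5-fold or less, with 0.1 FPKM added to each value. Over all transcripts of the table, 45.7% were at 2-fold or more and 37.2% at 0.5-fold or less. Of the higher members, 83.8% were listed at 0 in A549, and of the lower ones 84.8% were listed at 0 in A549/DDP. Among the 374 members with 20 read pairs or more in both libraries, 26 were 2-fold higher and 33 were lower, with a median fold of 1.06. All transcripts at that depth had a median fold of 0.986, with 8.54% higher and 10.99% lower.

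By host gene, 312 had 100 read pairs or more in either A549 library. Of these, 118 (37.8%) were 2-fold higher in A549/DDP and 48 (15.4%) lower, with a median fold of 1.55. Summed over every transcript of a symbol in the table, 26.3% of 970 symbols were higher and 19.2% lower. The A549/DDP library had 1.39 times the share of its bases in members, and taken as a share of all member bases the counts were 83 higher and 68 lower, so that 55.0% of the called host genes were higher in place of 71.1%.

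The host genes furthest above A549 came, apart from FAM155A, mostly with few members. PBDC1 had 457.3 read pairs in A549/DDP and 0 in A549, all of it from 1 member. It was at least 143-fold higher against a floor of 3 read pairs in the library at 0. Folds given as "at least" here and below hold only if a listed 0 means no more than that floor. STAM, an adaptor that sorts ubiquitinated receptors on endosomes, had 375.9 read pairs in A549/DDP and 0 in A549, at least 118-fold higher. The single member in AADACL2-AS1, an antisense RNA gene, had 286.1 read pairs in A549/DDP, at least 89.6-fold higher than in A549, and was at 0 in both HCC827 libraries too. Members in FAM230C, RP11-357H14.17 and AP000472.2 were at 0 in A549 and at least 69.3-fold, 52.6-fold and 51.9-fold higher in A549/DDP. The 1 other row of FAM230C had the opposite order, with 0 read pairs in A549/DDP and 45.2 in A549. The 2 other rows of AP000472.2 had the order of its members, with 11.6 in A549/DDP and 0 in A549. CYP1B1-AS1, an antisense RNA gene of the cytochrome P450 gene CYP1B1, had 264 read pairs in A549/DDP and 2 in A549, with an interval of the ratio from 34.0 to 1029.

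The host genes furthest below A549 included 1 that rested on a pseudogene. IQCB1, a gene of a ciliary protein, had 0 read pairs in A549/DDP and 231.8 in A549, at least 82.3-fold lower, all of it from 1 member. TMEM75, CFAP52, BOD1, CH507-24F1.2 and PLAGL2 were also listed at 0 in A549/DDP and at least 39.0-fold to 79.8-fold lower. SGCD, which encodes delta-sarcoglycan, had 0.954 read pairs in A549/DDP and 149.8 in A549, with 15 of its 16 members above 0 in A549. CLVS1, at 5.90 read pairs in A549/DDP and 287 in A549, owed its level in A549 to the member over NPM1P6. IQCB1, TMEM75, CFAP52 and BOD1 all had signal in both HCC827 libraries.

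Comparing HCC827/GR with HCC827 asks the same of gefitinib resistance. Of 18879 members at 0.1 FPKM or more in either library, 3583 (19.0%) were at 2-fold or more and 14941 (79.1%) at 0.5-fold or less, against 18.4% and 78.4% of all transcripts. Of the lower members, 98.6% were listed at 0 in HCC827/GR. Among the 727 members with 20 read pairs or more in both libraries the direction was the other way, with 369 at 2-fold or more, 64 at 0.5-fold or less and a median fold of 2.05. All transcripts at that depth had a median fold of 1.69, with 43.6% higher and 10.9% lower. Rescaled to TPM, a choice made after the values were seen, the same 727 members had a median fold of 1.21, with 226 at 2-fold or more and 136 at 0.5-fold or less, and all transcripts at that depth had 0.998. In the A549 pair that rescaling gave 20 higher and 41 lower of 374.

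Of 2364 host genes with 100 read pairs or more in either HCC827 library, 1469 (62.1%) were 2-fold higher in HCC827/GR and 464 (19.6%) lower, with a median fold of 4.19. Over all symbols of the table, 56.2% of 3749 were higher and 22% lower. Of the higher host genes, 667 were listed at 0 in HCC827, and the higher host genes held a median of 2 members, with a median of 1 above 0 in HCC827/GR. These shares lie close to those of the whole table and move with the depth per transcript given above, whose part was not tested.

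CD47, the cell surface ligand that inhibits uptake by macrophages through SIRPA, led the host genes that were higher. Its 3 members had 985.3 read pairs in HCC827/GR and were listed at 0 in HCC827, A549/DDP and A549, at least 387-fold higher than in HCC827. ADTRP, a membrane protein that regulates tissue factor pathway inhibitor, had 827.0 read pairs from 5 members in HCC827/GR and 0 elsewhere, at least 325-fold higher. All members of both genes were above 0 in HCC827/GR. That was fixed in advance, since no member of the table was at 0 in every library. FAM172A, ARHGAP29, a GTPase-activating protein, AUH, an enzyme of leucine breakdown, MTX2, of the mitochondrial outer membrane, VPS13B, a lipid transfer protein, and ASPM, a mitotic spindle protein, were at 0 in HCC827 and at least 232-fold to 280-fold higher.

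STON2, a clathrin adaptor of endocytosis, led those that were lower, with 0 read pairs in HCC827/GR and 783.2 in HCC827, at least 222-fold lower. Its highest member held 631.1 of them. PARP8, of the poly(ADP-ribose) polymerase family, had 0 read pairs in HCC827/GR and 645 in HCC827, with 24 of its 26 members above 0 in HCC827. RHEB, the GTPase that activates mTORC1, had 0 in HCC827/GR and 555.9 in HCC827, at least 157-fold lower, with all 7 members above 0 in HCC827. Under the symbol HBG2, that of a gamma chain of fetal haemoglobin, 8 members of 4658 bases in all had 0 read pairs in HCC827/GR and 560.2 in HCC827. They were at 0 in both A549 libraries. These values are of the members and not of the globin mRNA. RP3-331H24.5, FSTL4, CSGALNACT1, a chondroitin sulfate enzyme, and RP5-1061H20.4 were at 0 in HCC827/GR and at least 133-fold to 219-fold lower.

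Of 245 host genes tested in both pairs, 17 (6.94%) were higher in both resistant lines and 4 (1.63%) lower in both, 36 (14.7%) were higher in A549/DDP and lower in HCC827/GR, and 10 (4.08%) the reverse. Over all symbols tested in both, 7.31% were higher in both, 4.05% lower in both, 8.88% higher in A549/DDP and lower in HCC827/GR, and 5.09% the reverse. Some host genes were covered in both libraries of 1 line of origin and hardly in the other. A rule chosen after the values were seen asked for 50 read pairs or more in both libraries of 1 line. Both libraries of the other line were to have 3 or fewer. By it, 15 of the 7277 host genes belonged to A549 and 130 to HCC827, whose libraries held more member read pairs. Host genes with 100 read pairs or more numbered 260 in A549/DDP, 161 in A549, 1904 in HCC827/GR and 980 in HCC827. The rule was not run over all symbols of the table, so the split is a description only. Besides PDE4B, the A549 set held, as examples chosen after their values were seen, NRCAM, a neuronal adhesion molecule, with 232.5 read pairs in A549/DDP, 418.2 in A549 and 0 in both HCC827 libraries, and CPLX2, a complexin of synaptic vesicle fusion, with 353.6 and 277.3. ALDH1A1, a retinaldehyde dehydrogenase, was also in it. The HCC827 set held, as examples chosen likewise, STX17, the autophagosome syntaxin, with 485.4 read pairs in HCC827/GR and 685.7 in HCC827, and CREB5, a CRE-binding transcription factor, with 848.5 and 65.4. NYAP2 had 224.0 read pairs in HCC827/GR and 1054 in HCC827, and both A549 libraries were at 0 for all 3.

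Among the gene lists, regulators of small GTPases held most members. With 93 host genes and 574 members, they took 1.93% of member bases in A549/DDP, 1.98% in A549, 2.91% in HCC827/GR and 1.61% in HCC827. Of 47 tested in the HCC827 pair, 35 were 2-fold higher and 4 lower (62.1% and 19.6% over all host genes tested), with a median log2 ratio of 2.14 against 2.07 over all host genes tested. Of 7 in the A549 pair, 2 were higher and none lower (37.8% and 15.4% over all host genes tested). DENND1B, an exchange factor for Rab GTPases, had 1.52 bases per megabase in A549/DDP, 2.31 in A549, 79.7 in HCC827/GR and 18.3 in HCC827. ARHGAP11B, a human-specific copy of a GTPase-activating protein gene, was 2.46-fold higher in A549/DDP than in A549 (1.94 to 3.15), but its reads and those of ARHGAP11A cannot be told apart with certainty.

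Chromatin modifiers had 27 host genes with 314 members. Of 22 tested in the HCC827 pair, 10 were higher and 4 lower, against 62.1% higher and 19.6% lower over all host genes tested, with a median log2 ratio of 0.61, and of 8 in the A549 pair 2 were higher and none lower, against 37.8% and 15.4% over all host genes tested there. The chromatin remodeller CHD7 had 7.60 bases per megabase in A549/DDP, 0.573 in A549, 45.5 in HCC827/GR and 29.3 in HCC827, 13.3-fold higher in A549/DDP than in A549 (6.69 to 32.3). CHD9, of the same family, had 6.61 in A549/DDP, 5.32 in A549, 27 in HCC827/GR and 20.4 in HCC827. Ubiquitin enzymes had 51 host genes with 296 members, of which 22 of 31 were higher in HCC827/GR and 3 lower, near the 62.1% and 19.6% over all host genes tested, and 1 of 4 was higher in A549/DDP (37.8% over all host genes). FBXW11, an F-box protein, was 2.23-fold higher in A549/DDP (1.61 to 3.16) and 2.09-fold higher in HCC827/GR (1.78 to 2.45).

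DNA repair genes had 28 host genes with 203 members. In the HCC827 pair 8 of 12 were higher and 1 lower (62.1% and 19.6% over all host genes), and in the A549 pair 1 of 3 was higher (37.8% over all host genes), RAD51B, at 2.05-fold (1.72 to 2.43). As a share of member bases RAD51B had a log2 ratio of 0.55 in the A549 pair, which is under 2-fold. FANCL, the ubiquitin ligase of the Fanconi anaemia pathway, had 8.78 bases per megabase in A549/DDP, 9.96 in A549, 38.6 in HCC827/GR and 14.3 in HCC827. Genes of NRF2-linked detoxification had 8 host genes with 79 members, of which 2 of 4 were higher in A549/DDP (37.8% over all host genes). Those were ME1, malic enzyme, at 15.3 in A549/DDP and 5.01 in A549, and GCLC, the catalytic subunit of the rate-limiting enzyme of glutathione synthesis, at 16.8 and 7.13. For GCLC the ratio was 2.35 (1.87 to 3.01) and for ME1 3.05 (2.33 to 4.03). Neither ratio allows for the larger share of bases in members in A549/DDP.

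Genes of RNA processing and translation had 47 host genes with 181 members, and 20 of 26 were higher in HCC827/GR and 2 lower, against 62.1% and 19.6% over all host genes tested. RBMS1, an RNA-binding protein, had 33.3 bases per megabase in HCC827/GR and 0.980 in HCC827. Matrix and adhesion genes had 48 host genes with 175 members, with 6 of 13 higher in HCC827/GR and 2 lower (62.1% and 19.6% over all host genes). The single host of this list tested in the A549 pair, ITGA1, a collagen-binding integrin chain, had 9.89 in A549/DDP and 1.63 in A549, 6.07-fold higher (3.96 to 10.0). Receptor tyrosine kinases were hosts in only 9 of 38 cases, with 32 members, and 3 of 4 were higher in HCC827/GR (62.1% over all host genes). RYK, a Wnt receptor of this class, had 1.01 in A549/DDP, 1.01 in A549, 26.9 in HCC827/GR and 1.29 in HCC827. ERBB4, a receptor of neuregulins, had 0.327 in A549/DDP, 0 in A549, 0 in HCC827/GR and 12.4 in HCC827.

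The remaining lists held few members. ABC transporters had 15 host genes with 47 members, and in the HCC827 pair 3 of 5 were higher and 1, ABCD3, was lower (62.1% and 19.6% over all host genes tested). Ribosomal protein, snoRNA host and similarly named genes had 22 host genes with 52 members, with 6 of 10 higher in HCC827/GR and 4 lower, against the same 62.1% and 19.6%. Names of small structured RNAs gave 8 host genes with 9 members, and MIR30B was the single one tested. None of 20 glycolysis and lactate genes held a member. In the HCC827 pair the median log2 ratio was 5.62 for ubiquitin enzymes, 5.15 for RNA processing, 1.48 for DNA repair and 0.79 for matrix and adhesion, against 2.07 over all host genes tested, and it depends on the 3 read pairs added wherever HCC827 was at 0. The lists are otherwise described by counts alone, and no test set them against other host genes.

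Of 12 gene symbols looked up because transcripts of these lines have been described under them, 7 held members. TCF7L2, a transcription factor of the Wnt pathway, had 19.4 read pairs in A549/DDP, 1.52 in A549, 213.5 in HCC827/GR and 42.8 in HCC827. RALGAPB, a subunit of a Ral GTPase-activating complex, had 14.4 in A549/DDP, 0 in A549, 102 in HCC827/GR and 0.550 in HCC827. Both were thus higher in each resistant library, though neither reached 100 read pairs in an A549 library. TAB2, an adaptor of TAK1 kinase, had 15.9 in A549/DDP, 0 in A549, 0 in HCC827/GR and 7.57 in HCC827. JMJD1C, a Jumonji-domain histone demethylase family gene, had 222.8 in A549/DDP, 153.5 in A549, 551.0 in HCC827/GR and 527.9 in HCC827. ANXA8L1, an annexin with near-identical copies, had 59.6 in A549/DDP, 125.3 in A549, 304.7 in HCC827/GR and 186.5 in HCC827. ATP2B1, a plasma membrane calcium pump, had 41.0 in A549/DDP, 90.7 in A549, 190.0 in HCC827/GR and 209.9 in HCC827, and NT5C3A, a nucleotidase, had 31.6 in A549/DDP, 34.0 in A549, 0 in HCC827/GR and 76.3 in HCC827. Rows of JMJD1C outside the members, 4 in number, had 278.4 read pairs in A549/DDP, 1808 in A549, 0 in HCC827/GR and 730.1 in HCC827. In both pairs that was the opposite order to its members, whose own difference was under 2-fold and changed sign with the setting. For A549/DDP over A549 the members' log2 ratio was 0.44, but -0.04 as a share of member bases. For HCC827/GR over HCC827 it was 0.30, but -0.23 as such a share. Without the member with most bases it stayed at 0.44 for A549/DDP and became -0.53 for HCC827/GR. Rows of NT5C3A outside the members, 6 in number, had 53.0 in A549/DDP, 160.1 in A549, 34.9 in HCC827/GR and 222.8 in HCC827, the order of its members.

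Circular RNAs of the same host genes gave a readout that the choice of members did not use. Estimated circRNA counts were deposited for circRNAs of 2279 genes, of which 1089 also held members. Across these genes the levels of members and circRNAs were weakly related, with Spearman's rho of -0.04 in A549/DDP, -0.01 in A549, 0.29 in HCC827/GR and -0.02 in HCC827. The log2 ratios of A549/DDP over A549 had a rho of 0.46 across 97 host genes, and those of HCC827/GR over HCC827 a rho of 0.15 across 612. Where members were 2-fold higher in A549/DDP, the median log2 circRNA ratio was 0.20 (29 genes), and where they were lower it was -1.22 (7 genes). In the HCC827 pair these medians were -0.05 (413 genes with higher members) and -0.77 (78 genes with lower members). For TRIO the estimated circRNA counts were 3113 in A549/DDP, 2723 in A549, 6947 in HCC827/GR and 5942 in HCC827. For ASPM, whose members were seen in HCC827/GR alone, they were 881 in A549/DDP, 720 in A549, 831 in HCC827/GR and 1394 in HCC827. These correlations are across genes that share the same libraries and gene lengths, and are given as a description.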

How the data were processed

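Ribosomal RNA-depleted RNA of 4 cell lines was sequenced by the authors as paired-end reads, 1 library per condition. According to the paper, reads were trimmed with Cutadapt, checked with FastQC, aligned with Bowtie 2 and TopHat2 and assembled with StringTie, the assemblies were merged, and expression was estimated with StringTie and Ballgown. TopHat is also named in the processing notes of the submitters. Neither versions nor a genome build could be found (not given in the sources used here). One deposited table gives the authors' FPKM and their mean coverage signal per transcript and library, with scores of coding potential (CPC and CNCI). A second deposited table gives the authors' estimated counts of circRNAs. No columns of fold changes or p-values made by the authors were used.

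Members were the rows with the intronic class code and 1 exon. Coverage times length gave bases, coverage over FPKM gave the aligned bases of a library, and 302 bases (a pair of reads of 151) counted as 1 read pair, since bases on single-exon transcripts were most often a multiple of 151. Members were compared as the ratio of FPKM plus 0.1, in members at 0.1 FPKM or more in either library, with calls from 2 upward and from 0.5 downward. Members with 20 read pairs or more in both libraries were compared by bases per megabase aligned with nothing added. Host genes with 100 read pairs or more in either library were compared by summed bases per megabase aligned, with 3 read pairs added for calls and ranks, and ratios printed without them. Intervals are exact conditional Poisson intervals at 95% on rounded read pairs. Against a library at 0, a floor of 3 read pairs in that library gave the folds printed with "at least". They are bounds only if a listed 0 means no more than that floor. Members seen in 1 library alone had 5th percentiles of 4 read pairs in A549/DDP, 4 in A549, 57.5 in HCC827/GR and 7.85 in HCC827. A listed 0 therefore need not lie under the floor, least of all in HCC827/GR. No ratio is given where a library had 1 to 3 read pairs.

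Overlaps with RefSeq genes (GRCh38.p14) used the files' coordinates, after 91.4% of members with a host symbol in RefSeq were found inside the gene of that name, and no RefSeq gene coordinates were used as values. Lists were receptor tyrosine kinases, chromatin modifiers, small GTPase regulators, ubiquitin enzymes, matrix and adhesion, RNA processing and translation, DNA repair, ABC transporters, NRF2-linked detoxification, ribosomal protein and snoRNA host genes, glycolysis and lactate, and small structured RNA names. Several lists match on the start of a symbol, so the ribosomal list also holds RPS6 kinase genes.

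The named genes were the 12 host genes with the highest mean level, the 8 with most members, the 10 best covered members in all 4 libraries, the 8 host genes furthest up and 8 furthest down in each pair, the 3 members with most bases in each library, list members with 100 read pairs or more, and host genes among 12 names of the paper. Members over pseudogenes or small RNA genes and host genes of only 1 line were named with their values in view. The members, lists and thresholds were chosen with earlier results of these data known. The calls were also run on simulated members, well covered in the parent library, with equal depth and counting noise alone. Most of the real member calls, from 74.7% to 98.6% by pair and direction, had no signal in the other library. The median member above 0 carried 129.5 read pairs in HCC827/GR and 18.4 in HCC827. The simulation did not cover such calls or such a depth difference, and no conclusion is drawn from it. Scripts ran in Python 3.11.15 (scipy 1.17.1, numpy 2.4.6, pandas 2.3.3), and plots were drawn with matplotlib 3.10.9.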

Additional observations from a re-analysis of the deposited data

Results flagged for a closer look

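In 3 of the host genes with the highest levels or most members, the pairs differed in opposite directions by 2-fold or more. The difference between the pairs was not tested, since each condition had 1 library. FAM155A had a log2 ratio of 6.91 for A549/DDP over A549 and of -2.31 for HCC827/GR over HCC827. RP11-244M2.1 had log2 ratios of 1.94 and -1.56, and GPC6 of 2.43 and -1.10, in the same order. All 3 had fewer members above 0 in HCC827/GR than in HCC827, and GPC6 had 1 there, with 61.0 read pairs. Of 245 host genes tested in both pairs, 36 (14.7%) were higher in A549/DDP and lower in HCC827/GR, against 8.88% of all symbols. In the HCC827 pair the other rows of FAM155A had the order of its members. Those of GPC6 and RP11-244M2.1 had the other order, with 5.54 and 10.7 bases per megabase in HCC827/GR and 4.29 and 7.27 in HCC827.

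The number of members above 0 was higher in A549/DDP than in A549 (12303 against 9909) and lower in HCC827/GR than in HCC827 (4175 against 16240). This difference was not tested either.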

How the results depend on the processing

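No paired analysis was possible because each condition had 1 library, so there is no replicate number to pair or to leave out. Member counts stayed within 1.5 times with 1 or 0.01 FPKM added, with 1 FPKM or nothing as the filter, with TPM and with a 4-fold threshold. With 20 read pairs required in both libraries and 0.1 FPKM still added, 23 members were higher and 27 lower in A549/DDP, and 367 higher and 59 lower in HCC827/GR. The counts of such members in the results add nothing to either level. Loci in 2 or more libraries numbered 3199 at 10 read pairs, 449 at 50, 3199 when single reads were counted in place of pairs, 1663 with rows within 1 kb merged, 1428 without pseudogenes and 920 without HCC827/GR, the last pair of settings chosen after seeing the data. Without the 10 members with most bases, the share of aligned bases was 0.899% in A549/DDP, 0.647% in A549, 3.38% in HCC827/GR and 2.33% in HCC827, and with any number of exons 1.21%, 0.948%, 3.70% and 2.67%. With a minimum of 300 read pairs, 15 host genes were higher and 7 lower in A549/DDP, and 303 higher and 114 lower in HCC827/GR. Taking shares of member bases subtracts 0.47 (A549 pair) or 0.53 (HCC827 pair) from every log2 ratio, and rescaling to TPM adds -0.10 or -0.76. Without the member with most bases, PBDC1 had a log2 ratio of -2.57 (HCC827 pair), against the opposite sign with it. Values under 2-fold changed sign in 5 cases without that member, among them STAM (-4.70) and IQCB1 (1.14) in the HCC827 pair, and in 7 cases with shares of member bases. Of 78 named host gene values, 56 left their counting interval with those shares. Without the top member 65 of the 78 still had a value, of which 43 left their interval, 21 stayed within it and 1 is that of PBDC1. The other 13 had a single member or no more than 3 read pairs left in both libraries, among them PBDC1 (A549 pair) and RP13-512J5.1 (HCC827 pair). Of the 12 top hosts, 10 stayed without it. Counts of reads limit members under 20 read pairs.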
